A study of Rattus norvegicus with 16 samples.

Results

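Gene expression in the rat initial segment was compared between tissue taken 6 h after efferent duct ligation and tissue from sham operations. The comparison rests on 8 of the 16 arrays of the study, the 4 labelled as ligated for 6 h and the 4 labelled as sham control, and on every probe set that is not a control. The animals were normal adult male Sprague-Dawley rats. Per the labels, the operation was unilateral: on one side the efferent ducts were ligated, and the side opposite in the same rat received the sham operation. Only the most proximal piece of the initial segment was dissected. A single sham group served the 6, 12 and 18 h groups, so that time after surgery without ligation was not measured, and the hour at which the sham tissues were taken is not stated. The labels call the 4 replicates of a group biological without saying whether a replicate number stands for 1 rat, and p-values measure the spread between these arrays.

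The efferent ducts carry sperm and testicular fluid into the epididymis, and the initial segment, the epididymal region next to them, depends on factors in that fluid, a supply route known as lumicrine. Growth factors arriving in this way keep the MAP kinases ERK1 and ERK2 active in the principal cells of the segment. Active ERK maintains the transcripts of its own inhibitors, such as the dual-specificity phosphatases and the Sprouty proteins, and of the PEA3 transcription factors Etv1, Etv4 and Etv5, so that their levels are widely read as a record of ERK output. The study's title refers to ERK, STAT and NFKB signalling and to apoptosis. The 6 h group is the earliest time of ligation among the arrays, which measure transcripts and not signalling or cell death.

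Levels are given on the log2 scale, on which a difference of 1 is a doubling. A level under 5 was not told apart from background, and where a group mean is under 5 the measured difference is followed by an "at least" value, for which levels under 5 count as 5. Probe sets were tested if they reached 5 in at least 4 of the 16 arrays, which held for 13410. Errors are SEs of the difference of group means (n = 4 arrays each) and adjusted p-values are limma's with Benjamini-Hochberg adjustment. Several transcripts of the tissue were high: the initial segment genes Adam7, Cst11 and Cst8 had sham means of 14.20, 13.80 and 13.07. The epithelial genes Epcam and Krt8 had sham means of 12.36 and 11.40. Other genes chosen for the segment, Spag11a and Slc9a3, had sham means of 2.50 and 3.11 and were not tested. Neither were the epithelial genes Pax2 and Lhx1, with sham means of 3.33 and 3.20. The 8 arrays divided along the replicate numbers. Correlations between arrays were at least 0.950 within replicates 1 and 2 and at least 0.969 within replicates 3 and 4, and at most 0.955 across these pairs. Between the pairs 2175 probe sets (16.2%) differed at an adjusted p under 0.05. As each group holds 2 arrays on each side, changes are also given within each pair of replicates.

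Few probe sets were called at 6 h. Of the 13410 tested, 38 (0.283%) passed an adjusted p of 0.05, 15 of them higher (0.112%) and 23 lower (0.172%) after ligation. By gene, 30 of 8345 (0.359%) passed, 14 higher and 16 lower. At an unadjusted p under 0.05 there were 764 probe sets (5.7%), 476 higher (3.55%) and 288 lower (2.15%). The 4 ligated arrays lay wholly above or below the 4 sham arrays for 591 probe sets (4.41%), 385 above (2.87%) and 206 below (1.54%). Of the 38 called probe sets 37 did so, the exception being the sperm gene Smcp. The smallest change called was 0.44, and 25 of the 152 probe sets that moved by 1 or more were called. The number called depended on single arrays: leaving out sham replicates 1, 2, 3 and 4 in turn gave 48, 19, 13 and 7 calls, and leaving out 6 h replicates 1, 2, 3 and 4 gave 11, 10, 11 and 28. When the fit held only the 8 arrays compared, 15 were called, of which 10 were among the 38. In that fit 21 of the 30 called genes lost their call.

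**Figure D1:**
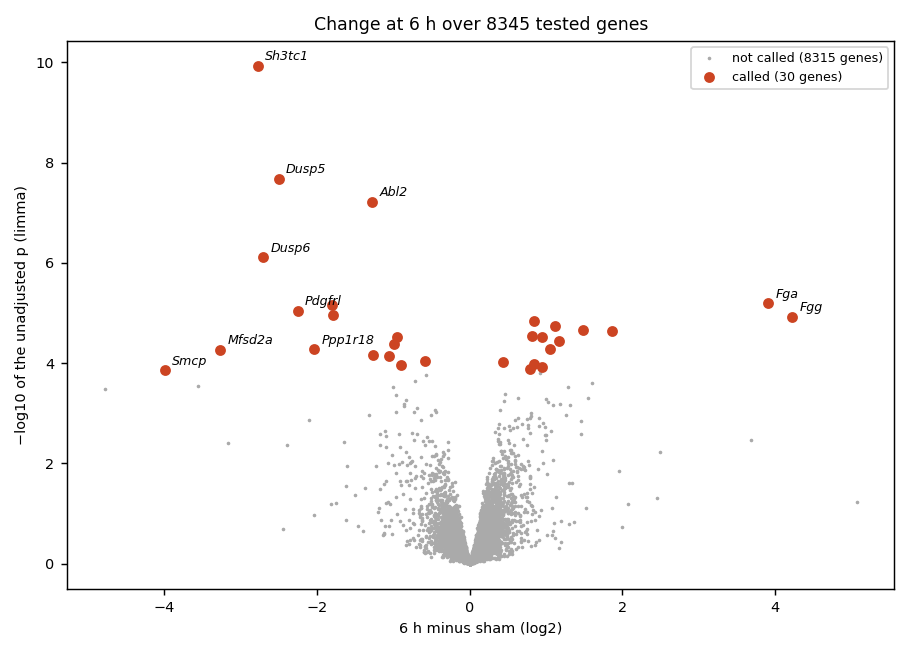
Change from sham to 6 h (log2, horizontal axis) against the −log10 of limma's unadjusted p (vertical axis) for 8345 tested genes, 1 point per gene. The 30 called genes are red. Sh3tc1, Dusp5 and Abl2 have the smallest p-values, all on the lower side, and Fgg and Fga have the largest called rises as measured, 4.22 and 3.91, from sham levels under 5.

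The clearest early falls in a known pathway were those of 2 ERK phosphatases. Dusp5, the nuclear phosphatase that both inactivates and anchors ERK, stood at 10.87, 11.13, 10.86 and 11.02 in the sham arrays and at 8.26, 8.52, 8.31 and 8.79 in the ligated arrays. Both groups were tight and lay far apart. Dusp5 fell by 2.50 ± 0.23, a level 5.66-fold lower (adjusted p = 9.46e-05). Dusp6, which acts on ERK in the cytoplasm, stood at 9.11, 10.08, 10.09 and 11.18 in sham and at 7.18, 7.32, 7.67 and 7.48 after ligation. The sham arrays were spread (SD 0.845) and the ligated ones were not (SD 0.209), and the groups did not overlap. Dusp6 fell by 2.70 ± 0.33, or 6.51-fold (adjusted p = 0.00208). Its other tested probe sets read the same direction, at -3.41 (adjusted p = 0.00229) and -2.32 (adjusted p = 0.440). Both genes kept their call in each of the 8 fits without 1 array, although with only the 8 arrays in the fit the adjusted p of Dusp6 was 0.0630.

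The promoters of these genes are shown because ERK acts on transcription largely through ETS factors, and CREB is among the other factors of early response genes. Each line gives the 250 bases before the RefSeq start site in GRCr8 on the plus strand, with matches to the CRE core TGACG or the ETS core CGGAAG, searched on both strands, in capitals. The interval is chr1:262543524-262543773 for Dusp5 and chr7:35979354-35979603 for Dusp6.
Dusp5: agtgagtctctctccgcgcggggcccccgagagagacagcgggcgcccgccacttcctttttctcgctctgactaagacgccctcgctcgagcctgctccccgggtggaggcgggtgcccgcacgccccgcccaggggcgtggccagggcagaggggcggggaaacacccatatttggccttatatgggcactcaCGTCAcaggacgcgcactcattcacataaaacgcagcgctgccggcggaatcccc
Dusp6: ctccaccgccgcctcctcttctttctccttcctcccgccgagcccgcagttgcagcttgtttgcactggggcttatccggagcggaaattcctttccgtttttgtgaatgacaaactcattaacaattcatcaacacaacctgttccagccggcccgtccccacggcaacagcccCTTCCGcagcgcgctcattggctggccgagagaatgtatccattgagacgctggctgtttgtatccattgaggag
The CRE core of Dusp5 began at position -55 from the start site and the ETS core of Dusp6 at position -75. In windows of 300 bases, which add 50 bases after the start, the CRE core was present in 3 of the 12 genes called lower that had a promoter in the table (25%) and in 34.3% of 7030 tested genes, and the ETS core in 1 of 12 (8.33%) against 34.6%. A match is a run of letters and not a measured binding site.

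The other genes of the ERK list were not called at this time. Of 21 ERK feedback and output genes 18 were matched and 14 tested. Of these 14, 2 fell, 0 rose and 12 were not called, where 0.359% of all genes were called. At an unadjusted p under 0.05, 5 were lower (35.7%, beside 2.29% of all genes). Of the differences 12 were negative (85.7%, beside 43.7% of all genes). The list's median was -0.46, beside 0.02 over all 8345 genes. The Sprouty genes encode inhibitors of receptor tyrosine kinase signalling. Spry2 stood at 7.85, 8.19, 7.47 and 7.94 in sham and 6.89, 6.88, 7.18 and 6.92 after ligation, without overlap, a difference of -0.90 ± 0.36 (adjusted p = 0.718). Spry1 did not overlap either (-0.64 ± 0.16, adjusted p = 0.206), whereas Spry4 overlapped (-0.06 ± 0.11). Among the PEA3 factors, Etv5 ran from 8.45 to 10.29 in sham and from 7.25 to 8.92 after ligation, a difference of -1.37 ± 0.57 (adjusted p = 0.753). Etv4 stood at -0.56 ± 0.43 and Etv1 at -0.22 ± 0.19, both with overlapping arrays and neither called. Of the general early response genes on the list, Egr1 (0.17 ± 0.32) and Ccnd1, a cyclin gene (-0.07 ± 0.28), were not called, and Myc had both means under 5. The phosphatase gene Dusp4 did not reach the minimum level.

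Of the immediate early genes 1 was called. Among 17 tested members 1 rose and 0 fell, where 0.359% of all genes were called, and the median was -0.04. The member that rose was Rasd1, a Ras-related GTPase gene inducible by glucocorticoids. Its sham levels were 10.62, 9.48, 10.37 and 10.35 and its ligated levels 11.35, 11.16, 11.47 and 11.51, all 4 above every sham array. Rasd1 rose by 1.17 ± 0.20 (adjusted p = 0.0244), and its adjusted p was 0.0939 without 6 h replicate 3. Klf10 (0.40 ± 0.10, adjusted p = 0.170), a TGF-beta-inducible repressor gene, was higher in every ligated array without being called. Fos, a subunit of AP-1, had means under 5 in both groups.

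**Figure D2:**
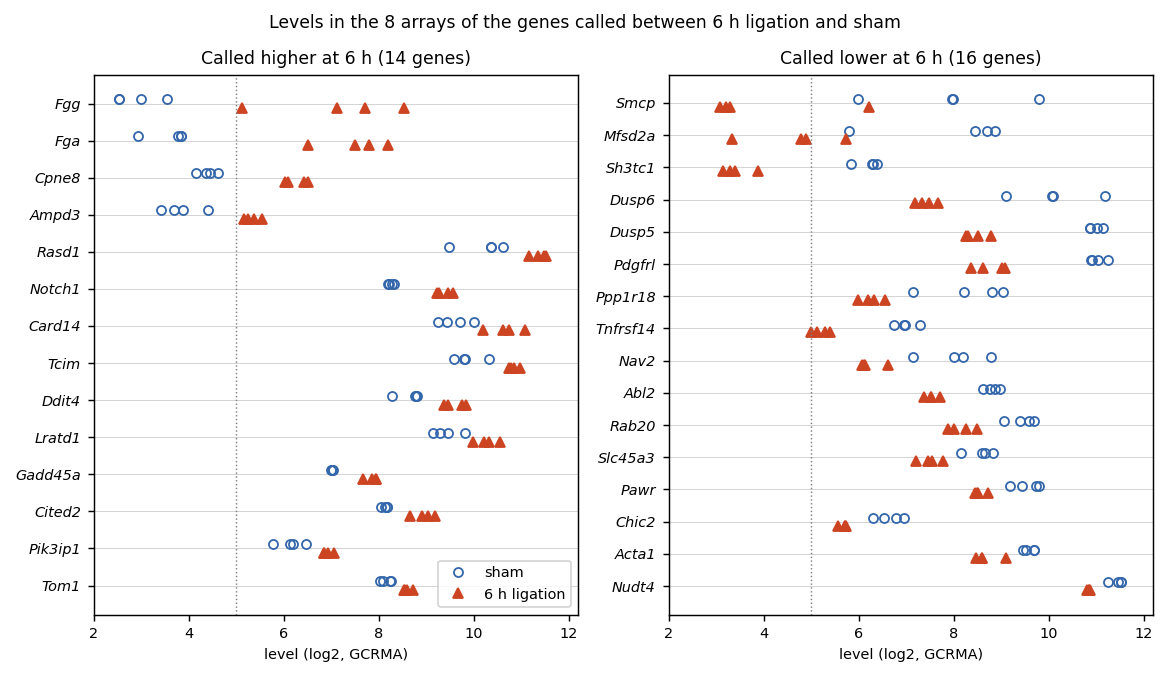
Levels (log2, horizontal axis) of the 30 called genes in each sham array (open blue circles) and each array at 6 h of ligation (red triangles), called higher on the left and called lower on the right, ordered by the size of the change. The dotted line marks the minimum level of 5. The groups are apart for 29 of the 30 genes and overlap for Smcp.

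The gene with the smallest p of all was Sh3tc1, which encodes a protein with SH3 and tetratricopeptide repeat domains. It stood at 6.31, 6.28, 5.85 and 6.39 in sham and at 3.29, 3.14, 3.40 and 3.89 after ligation. All 4 ligated arrays were under the minimum level, so that Sh3tc1 passed from measured to not told apart from background, a fall of 2.78 ± 0.17 as measured and at least 1.21 (adjusted p = 1.56e-06). Abl2, a non-receptor tyrosine kinase that remodels the actin cytoskeleton, stood at 8.61, 8.98, 8.76 and 8.88 in sham and 7.51, 7.72, 7.37 and 7.53 after ligation. It fell by 1.27 ± 0.12 (adjusted p = 2.04e-04), without overlap of the arrays. Sh3tc1 and Abl2 kept their call in each of the 8 fits without 1 array, as Dusp5 and Dusp6 did. No other called gene did so.

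Several genes of receptors and transporters were among those that fell. Pdgfrl, a gene for a protein resembling the extracellular part of the PDGF receptor, stood at 11.04, 10.90, 11.26 and 10.91 in sham and 8.62, 9.07, 8.37 and 9.03 after ligation, a fall of 2.26 ± 0.34 (adjusted p = 0.0133). It was the only member called among 17 tested growth factor and receptor genes (median -0.06), where 0.359% of all genes were called. Mfsd2a, which transports lysophospholipids carrying omega-3 fatty acids into cells, stood at 5.796, 8.45, 8.70 and 8.86 in sham and 3.34, 4.78, 5.73 and 4.89 after ligation. Sham replicate 1 was far below the other sham arrays and just above the highest ligated array, and the fall was 3.26 ± 0.58 as measured and at least 2.77 (adjusted p = 0.0278). Mfsd2a was the only call, a fall, among 22 tested genes of fatty acid synthesis and lipid handling (median -0.08). Mogat1, which makes diacylglycerol from monoacylglycerol, stood at -2.11 ± 0.53 with overlapping arrays (adjusted p = 0.209, and 0.00418 with the replicate block). Tnfrsf14, the herpesvirus entry mediator of the TNF receptor family, fell by 1.80 ± 0.26 from 6.75 to 7.30 in the sham arrays to 4.999 to 5.39 (adjusted p = 0.0118). Slc45a3, a solute carrier gene, fell by 1.06 ± 0.19 (adjusted p = 0.0322).

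A further 6 genes that fell, which no list groups, were Ppp1r18, Nav2, Rab20, Pawr, Chic2 and Nudt4. Ppp1r18, a protein phosphatase 1 regulator bound to actin, stood at 7.15, 8.81, 8.21 and 9.05 in sham and at 6.32, 6.55, 6.20 and 5.996 after ligation, a fall of 2.04 ± 0.36 (adjusted p = 0.0278). Nav2, a cytoskeleton-binding protein of the neuron navigator family, stood at 7.14, 8.78, 8.02 and 8.19 against 6.06, 6.62, 6.13 and 6.12, a fall of 1.80 ± 0.27 (adjusted p = 0.0143). In both genes sham replicate 1 was the lowest sham array, as it was for 9 of the 16 genes that fell. Rab20, a small GTPase of vesicle traffic, fell by 1.27 ± 0.23 (adjusted p = 0.0316). Pawr, a pro-apoptotic protein first found in prostate cells, fell by 0.99 ± 0.17, from 9.18 to 9.80 in sham to 8.44 to 8.73 (adjusted p = 0.0259). Chic2 fell by 0.96 ± 0.16 (adjusted p = 0.0216), and Nudt4, a phosphohydrolase of inositol pyrophosphates, by 0.59 ± 0.11 (adjusted p = 0.0385). Averaged over the tested probe sets of the gene, the adjusted p was 0.106 for Rab20 and 0.388 for Nudt4.

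Most of these falls depended on which arrays were in the fit. When sham replicate 4 was left out, the adjusted p rose to 0.0512 for Tnfrsf14, 0.064 for Nav2, 0.114 for Chic2, 0.129 for Ppp1r18 and Pawr, 0.136 for Mfsd2a, 0.144 for Rab20, 0.156 for Slc45a3 and 0.169 for Nudt4. It was 0.0587 for Pdgfrl without 6 h replicate 3. In every fit without 1 array the direction stayed lower for all 16 genes. For all but Smcp this follows from arrays that do not overlap and is no separate evidence.

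Acta1, which encodes the alpha-actin of skeletal muscle, fell from 9.70, 9.68, 9.45 and 9.52 to 9.11, 8.60, 8.47 and 8.59, a fall of 0.90 ± 0.17 (adjusted p = 0.0422, and 0.173 without 6 h replicate 3). Of 11 tested smooth muscle markers limma called 0, where 0.359% of all genes were called. At an unadjusted p under 0.05, 2 were lower (18.2%, beside 2.29% of all genes). All 11 had a negative difference (median -0.29), as 43.7% of all genes did. Their summed linear signal was 15125, 16171, 13059 and 12184 in sham and 15212, 13502, 9595 and 10376 after ligation, so that the groups overlapped and replicate 1 was not lower after ligation. The part of muscle cells in the fall of Acta1 was not tested. In these tissue samples fewer cells of a type and less RNA per cell cannot be told apart.

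A further 5 called falls and 1 rise belonged to probe sets that the annotation gives no single gene. The probe set 1375475_at, with the largest called fall as measured, stood at 6.97, 6.91, 6.58 and 6.87 in sham and at 2.45, 2.25, 2.62 and 2.69 after ligation, a fall of 4.33 ± 0.30 as measured and at least 1.83 (adjusted p = 4.48e-06). Its p was the second smallest after that of Sh3tc1. The other unnamed probe set to pass under the minimum in all 4 ligated arrays was 1393559_at, with a fall of 2.67 ± 0.46 as measured and at least 1.41 (adjusted p = 0.0259).

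The largest called rises, as measured, were those of 2 fibrinogen chains. Fibrinogen is the soluble clotting protein built from an alpha, a beta and a gamma chain, and in the liver STAT3 induces its genes during the acute phase response. Fgg, the gamma chain gene, stood at 2.99, 2.53, 3.55 and 2.53 in sham and at 5.12, 7.11, 7.72 and 8.54 after ligation. Every sham array was under the minimum level and every ligated array above it, with a wide spread among the ligated arrays (SD 1.46). Fgg rose by 4.22 ± 0.64 as measured and by at least 2.12 (adjusted p = 0.0143). Fga, the alpha chain gene, stood at 3.83, 3.83, 3.77 and 2.93 in sham and at 6.50, 7.49, 7.80 and 8.20 after ligation, a rise of 3.91 ± 0.56 as measured and at least 2.50 (adjusted p = 0.0118). In both genes 6 h replicate 1 was the lowest and 6 h replicate 4 the highest ligated array. A second probe set of Fga was under 5 in all 8 arrays. The probe set of Fgb, the beta chain gene, was at the floor value of 2.22 in these arrays and in the means at 12 and 18 h. It thus gave no reading of whether Fgb changed. When sham replicate 4 was left out, Fga had an adjusted p of 0.0527 and Fgg one of 0.064.

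The start sites of Fga and Fgg lie 19.1 kb apart on chromosome 2, both on the plus strand. Their promoters are shown with matches to the STAT palindrome TTCNNNGAA, searched on both strands, in capitals, over the 250 bases before the RefSeq start site in GRCr8, chr2:170671919-170672168 for Fga and chr2:170652833-170653082 for Fgg.
Fga: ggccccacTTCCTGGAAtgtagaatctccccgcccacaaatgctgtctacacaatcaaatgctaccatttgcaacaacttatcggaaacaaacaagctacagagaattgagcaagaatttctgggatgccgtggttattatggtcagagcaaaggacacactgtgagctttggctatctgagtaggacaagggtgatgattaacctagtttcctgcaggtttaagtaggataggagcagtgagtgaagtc
Fgg: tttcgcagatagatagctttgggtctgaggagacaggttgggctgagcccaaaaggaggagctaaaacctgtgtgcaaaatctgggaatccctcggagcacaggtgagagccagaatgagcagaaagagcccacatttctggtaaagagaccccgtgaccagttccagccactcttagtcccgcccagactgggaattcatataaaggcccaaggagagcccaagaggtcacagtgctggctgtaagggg
Fga held the motif at position -242 from the start site, and the letters were not found in the Fgg window. Other forms of STAT site were not searched for. The motif was in 1 of the 11 genes called higher that had a promoter in the table (9.09%), 0 of the 12 called lower, and 6.59% of the 7030 tested genes with a promoter.

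Of the STAT and acute phase genes only those of fibrinogen were called. Of 18 tested members 2 rose, which were the fibrinogen genes, and 0 fell, where 0.359% of all genes were called. At an unadjusted p under 0.05, 7 were higher, the fibrinogen genes among them, and 0 lower (38.9% higher, beside 3.73% of all genes). The list's median was 0.41, or 0.28 with levels under 5 counted as 5, beside 0.02 over all genes. Of the other members, Junb (-0.37), a subunit of AP-1, Il6st (-0.04), the receptor subunit gp130, and Timp1 (0.03), a metalloproteinase inhibitor gene, were not called. Bcl6, a transcriptional repressor gene, stood at 5.68, 4.89, 4.996 and 6.10 in sham and at 6.29, 6.63, 7.26 and 7.32 after ligation (1.46 ± 0.37, adjusted p = 0.214). Cebpd, an acute phase transcription factor gene, stood at 5.39, 5.36, 5.33 and 5.65 against 5.93, 6.45, 6.56 and 6.39 (0.90 ± 0.23, adjusted p = 0.205). A2m, the protease inhibitor alpha-2-macroglobulin of the rat acute phase, was at 4.15, 4.15, 4.15 and 3.89 in sham and at 4.15, 6.38, 6.73 and 6.89 after ligation, so that 3 of 4 ligated arrays exceeded the minimum (1.95 as measured and at least 1.25, adjusted p = 0.591). Stat3 itself (0.67 ± 0.30) and Pim3, a survival kinase gene (0.71 ± 0.25), were not called. Socs3, the feedback inhibitor of STAT3, did not reach the minimum level and was at 2.26 to 2.28 in the 8 arrays.

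Of 15 tested growth arrest and p53 target genes 2 rose, Gadd45a and Cited2, and 0 fell (median 0.14). Of all genes 0.359% were called. Gadd45a, a stress-induced growth arrest gene, stood at 7.04, 7.02, 7.01 and 6.996 in sham and 7.94, 7.95, 7.86 and 7.67 after ligation. The sham arrays were nearly equal (SD 0.0165), and Gadd45a rose by 0.84 ± 0.13 (adjusted p = 0.0159). Cited2, a CBP and p300 binding protein that limits HIF activity, rose by 0.81 ± 0.14, from 8.04 to 8.18 in sham to 8.66 to 9.19 (adjusted p = 0.0216). Gadd45g, at 7.77, 6.89, 6.70 and 6.64 in sham and 7.95 to 8.05 after ligation, was not called (1.00 ± 0.22, adjusted p = 0.124), and Cdkn1a, the p21 gene, stood at 0.00 ± 0.40.

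Ddit4 and Pik3ip1, a gene acting on mTOR and one acting on PI3K, also rose. Ddit4, which inhibits mTORC1 under stress, stood at 8.77, 8.29, 8.76 and 8.81 in sham and at 9.74, 9.45, 9.84 and 9.37 after ligation, a rise of 0.94 ± 0.16 (adjusted p = 0.0216). It was the 1 called member of 17 tested amino acid stress genes (median 0.24), where 0.359% of all genes were called. Pik3ip1, an inhibitor of PI3K, rose by 0.78 ± 0.15 (adjusted p = 0.0469), with levels of 5.76 to 6.46 in sham and 6.84 to 7.06 after ligation. Pik3ip1 had an adjusted p of 0.191 without 6 h replicate 1, and Ddit4 one of 0.0939 without 6 h replicate 3.

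Notch1, the receptor whose cleaved part acts as a transcription factor in cell fate decisions, stood at 8.32, 8.22, 8.20 and 8.29 in sham and at 9.45, 9.26, 9.57 and 9.22 after ligation. Notch1 rose by 1.12 ± 0.18 (adjusted p = 0.0187), and its second tested probe set read 1.13 (adjusted p = 0.206). It was the 1 called member of 11 tested Notch pathway genes (median 0.03), where 0.359% of all genes were called. The Notch target Hes1 (0.09 ± 0.16) and the ligand gene Jag1 (-0.16 ± 0.15) were not called. Without 6 h replicate 1 the adjusted p of Notch1 was 0.0738.

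The remaining called rises spread over several functions. Cpne8, a calcium-dependent membrane-binding protein of the copine family, was at 4.14, 4.62, 4.37 and 4.45 in sham and at 6.08, 6.51, 6.43 and 6.02 after ligation, a rise of 1.86 ± 0.30 as measured and at least 1.26 (adjusted p = 0.0188). Ampd3, which deaminates AMP, was at 3.88, 3.70, 3.41 and 4.40 in sham and at 5.37, 5.17, 5.25 and 5.53 after ligation, a rise of 1.48 ± 0.24 as measured and at least 0.33 (adjusted p = 0.0188). Both thus passed from under the minimum level to above it. Card14, a scaffold that can activate NFKB in epithelia, rose by 1.05 ± 0.19 (adjusted p = 0.0278), with its lowest ligated array (10.19) just above its highest sham array (10.01). Lratd1 rose by 0.84 ± 0.16 (adjusted p = 0.0422). Tcim rose by 0.95 ± 0.18 (adjusted p = 0.0452, and 0.0614 with the replicate number as a block). Tom1, an adaptor of endosomal sorting, had the smallest change called, 0.44 ± 0.08 (adjusted p = 0.0394, and 0.0537 with the replicate block). Averaged over the gene's tested probe sets, the adjusted p was 0.0866 for Cited2, 0.113 for Cpne8, 0.239 for Fga and 0.91 for Tom1.

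These rises lost their call without 1 or more arrays. When sham replicate 4 was left out, the adjusted p rose to 0.111 for Cited2 and 0.136 for Card14. Without 6 h replicate 1 it was 0.0732 for Gadd45a, 0.0738 for Ampd3, 0.181 for Lratd1 and Tom1, and 0.185 for Tcim. Without 6 h replicate 3 it was 0.0749 for Cpne8. Sham replicate 1 was the highest sham array for 7 of the 14 genes that rose.

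Of the genes that were not called although their ligated arrays all lay beyond the sham arrays, the largest difference as measured was that of Sprr2d. Sprr2d, a small proline-rich protein of the cornified layer of epithelia, was at 2.75, 2.79, 3.57 and 5.35 in sham and at 6.41, 6.85, 9.11 and 6.80 after ligation (3.68 ± 1.05 as measured and at least 2.21, adjusted p = 0.333). Elf3, an epithelial ETS factor gene, stood at 5.99, 6.65, 6.18 and 6.09 against 7.54, 7.68, 7.83 and 8.06 (1.55 ± 0.34, adjusted p = 0.124). Znf750, a differentiation factor of the epidermis, stood at 1.28 ± 0.27 (adjusted p = 0.0861), Ninl at 2.49 ± 0.77 (adjusted p = 0.433) and Myzap, a junction-associated protein, at 1.46 ± 0.40 (adjusted p = 0.288). Cnr1, the cannabinoid receptor of nerve cells, crossed the minimum level in all arrays (1.61 ± 0.33 as measured and at least 0.46, adjusted p = 0.0746, and 0.0155 with the replicate block). Among stress genes, Ddit3, the transcription factor CHOP, stood at 1.34 ± 0.53 (adjusted p = 0.706), Slc7a11, the cystine transporter, at 1.52 ± 0.80 as measured and at least 1.17 (adjusted p = 0.999), and Mt2A, a metallothionein, at 1.31 ± 0.30 (adjusted p = 0.142).

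The lower counterparts of these included Egln3, a prolyl hydroxylase of HIF, which stood at 10.05, 9.02, 9.46 and 9.64 in sham and at 8.22, 7.91, 7.78 and 8.98 after ligation (-1.32 ± 0.32, adjusted p = 0.188). Mertk, a receptor for the engulfment of dying cells, stood at -1.10 ± 0.33 (adjusted p = 0.385), with the highest ligated array, 5.79, next to the lowest sham array, 5.81. Spin2b stood at -1.65 ± 0.48 (adjusted p = 0.341), Cttnbp2 at -1.11 ± 0.30 (adjusted p = 0.268), Exoc3l4 at -1.23 ± 0.42 (adjusted p = 0.545), Usp43, a deubiquitinase gene, at -1.18 ± 0.35 (adjusted p = 0.357), and Fibin at -1.01 ± 0.32 (adjusted p = 0.455). Lyrm9 stood at -1.18 ± 0.32 (adjusted p = 0.288) by its representative probe set, although another of its probe sets was called lower. Cfd and Spink8 had means under 5 in both groups.

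**Figure D3:**
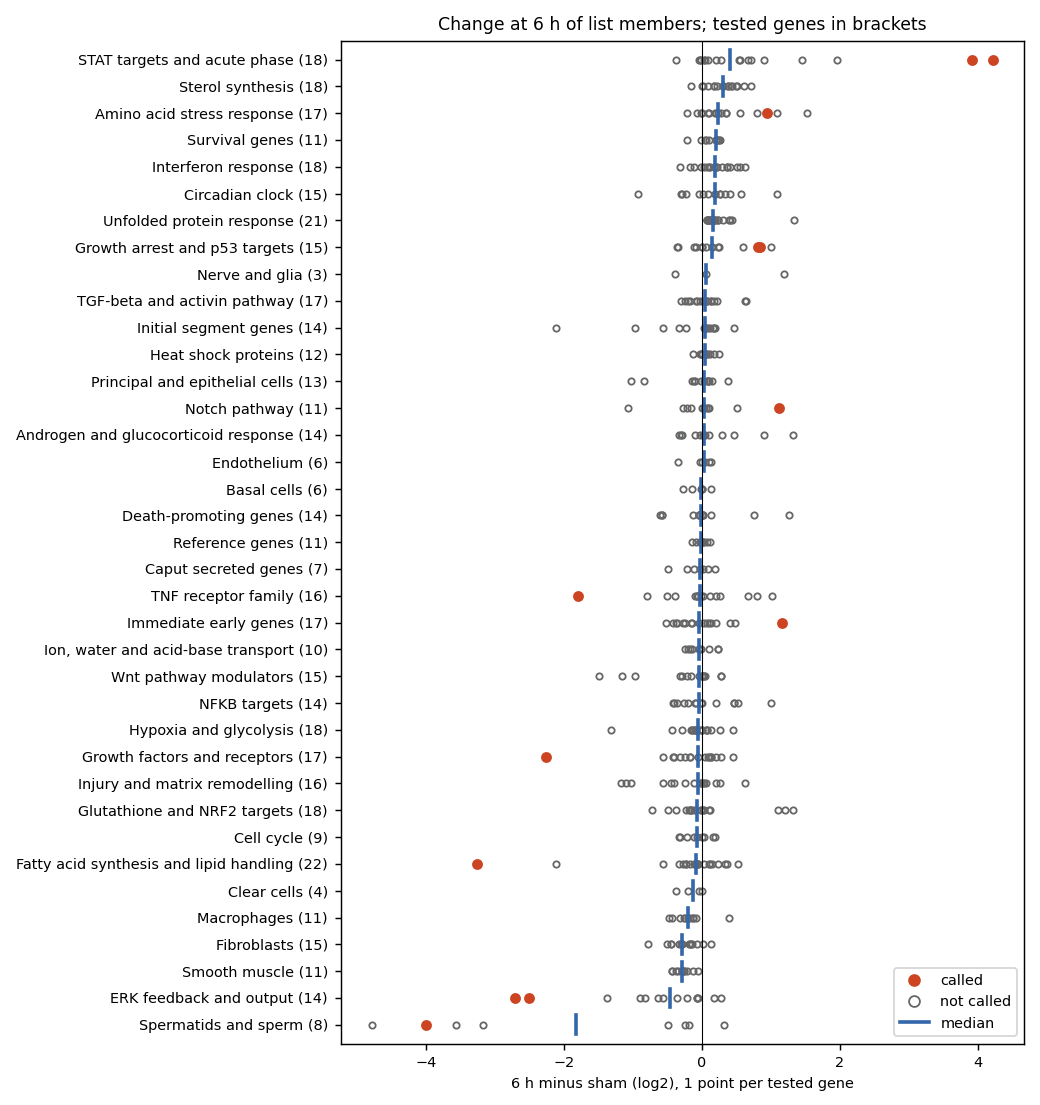
Change from sham to 6 h (log2, horizontal axis) of the tested members of each list with at least 3 of them, 1 point per gene, with called genes filled in red and the list's median as a blue bar; the number tested follows each name. Spermatid and sperm markers and the ERK list have the lowest medians, -1.83 and -0.46, and the STAT list the highest as measured, 0.41. Sperm markers could pass the minimum level through the sham arrays alone. With levels under 5 counted as 5, the medians of the sperm and STAT lists are -0.94 and 0.28.

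The lists of NFKB targets, death-promoting genes and survival genes held no called member at 6 h, where 0.359% of all genes were called; Pawr, described above as pro-apoptotic, is on none of them. Of 14 tested NFKB targets limma called 0, with 0 at an unadjusted p under 0.05 and a median of -0.05. Nfkbia, the inhibitor that NFKB itself induces, stood at 8.18, 7.78, 8.23 and 8.31 in sham and 8.12, 7.85, 8.13 and 8.01 after ligation (-0.10 ± 0.13), and the adhesion molecule gene Icam1 stood at 0.46 ± 0.29. Of 14 tested death-promoting genes limma called 0. At an unadjusted p under 0.05, 1 was higher (7.14%, beside 3.73% of all genes) and 3 were lower (21.4%, beside 2.29%). Bcl2l11, the BH3-only killer BIM, stood at 4.77, 5.48, 6.22 and 6.26 in sham and at 7.35, 6.86, 6.85 and 6.72 after ligation (1.26 ± 0.31, adjusted p = 0.190). Its difference was 1.98 within replicates 1 and 2 and 0.54 within replicates 3 and 4. Bok, a BAX-like effector, stood in the other direction at 9.33, 9.35, 9.23 and 9.35 against 8.90, 8.68, 8.53 and 8.86 (-0.57 ± 0.11, adjusted p = 0.0580, and from 0.0176 with array weights to 0.678 in replicates 1 and 2 alone). Casp8, the initiator caspase, stood at -0.58 ± 0.17 (adjusted p = 0.355). Of 11 survival genes limma called 0, with 0 at an unadjusted p under 0.05 and a median of 0.20. In the TNF receptor family 1 of 16 tested members, Tnfrsf14, fell and 0 rose. The death receptor gene Tnfrsf21 (1.02 ± 0.37, adjusted p = 0.607) and the death ligand gene Tnfsf10, TRAIL (0.79 ± 0.20, adjusted p = 0.205), were each higher in every ligated array and were not called.

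Among metabolic and protein folding lists the signs of the differences varied. Of all genes 0.359% were called. Of 18 tested sterol synthesis genes limma called 0, with 7 higher (38.9%, beside 3.73% of all genes) and 0 lower at an unadjusted p under 0.05. Of the 18, 16 differences were positive (88.9%, beside 56.2% of all genes), and the median was 0.30. Msmo1 stood at 10.97, 10.45, 10.87 and 10.67 in sham and at 11.41, 11.14, 11.23 and 11.24 after ligation (0.51 ± 0.13, adjusted p = 0.244), and Fdft1, squalene synthase, at 0.50 ± 0.14 (adjusted p = 0.333). All 21 unfolded protein response genes had positive differences (median 0.16), as 56.2% of all genes did. Of these 21 limma called 0, with 2 higher at an unadjusted p under 0.05 (9.52%, beside 3.73% of all genes). Among genes of fatty acid synthesis and lipid handling 14 of 22 differences were negative (63.6%, beside 43.7% of all genes). In hypoxia and glycolysis 11 of 18 were negative (61.1%, median -0.05). Among glutathione and NRF2 targets 11 of 18 were negative as well (61.1%, median -0.07). In the latter 2 lists limma called 0. All of these medians were small, beside 0.02 over all genes. The chaperone gene Hspa5 stood at 0.10 ± 0.10 and Dnajb9 at 0.44 ± 0.16. Of 18 interferon response genes limma called 0, with a median of 0.19. At an unadjusted p under 0.05, 2 were higher (11.1%, beside 3.73% of all genes). Irf1 stood at 0.40 ± 0.12 (adjusted p = 0.427). The median change over all tested probe sets was 0.02 as deposited and -0.01 after centring each array on its median.

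No marker gene of the segment was called. Of 14 tested initial segment genes limma called 0, where 0.359% of all genes were called. Their median was 0.05. At an unadjusted p under 0.05, 0 were higher and 2 lower, Nkd2 and Mogat1 (14.3% lower, beside 2.29% of all genes). Penk, proenkephalin, stood at 13.12, 14.14, 13.98 and 13.91 in sham and at 13.96, 14.20, 14.04 and 13.74 after ligation (0.20 ± 0.68). Cst8, a cystatin secreted by the segment, stood at 0.16 ± 0.55 and Ggt1, gamma-glutamyl transferase, at 0.03 ± 0.17, and both were negative within replicates 3 and 4 alone (-0.15 and -0.17). Nkd2, a Wnt antagonist gene, stood at 11.35, 11.47, 10.99 and 11.04 against 10.26, 10.40, 9.93 and 10.42, without overlap (-0.96 ± 0.35, adjusted p = 0.607). Of 11 reference genes limma called 0, with a median of -0.02 and 0 at an unadjusted p under 0.05.

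Transcripts of germ cells had the lowest median of all lists as measured. Of 17 matched markers only 8 were tested, and a marker could pass the minimum level through the 4 sham arrays alone. Smcp, for example, had means of 3.95, 3.95 and 3.31 at 6, 12 and 18 h. The low median thus rests in part on members admitted through the group where they are high, and it is no separate evidence of a fall. Of 8 tested spermatid and sperm markers 1 fell and 0 rose, where 0.359% of all genes were called. At an unadjusted p under 0.05, 4 were lower (50%, beside 2.29% of all genes). The median was -1.83, or -0.94 with levels under 5 counted as 5. Smcp, a mitochondrial capsule protein of sperm, stood at 9.80, 5.997, 7.99 and 7.97 in sham and at 3.21, 3.07, 3.29 and 6.22 after ligation. Ligated replicate 4 lay above sham replicate 2, the only overlap among called genes. Smcp fell by 3.99 ± 0.77 as measured and by at least 2.64 (adjusted p = 0.0487, 0.0606 with the replicate block, and 0.196 without 6 h replicate 1). Odf1, an outer dense fibre protein of the sperm tail, stood at 9.54, 7.20, 8.70 and 8.59 against 2.22, 2.22, 2.59 and 7.87 (-4.78 ± 1.02 as measured and lower by at least 2.79, adjusted p = 0.0905). Prm1, which packs sperm DNA, stood at -3.56 ± 0.75 (adjusted p = 0.0861). The summed linear signal of the list was 3185, 616, 1709 and 2045 in sham and 268, 294, 391 and 1029 after ligation, with ligated replicate 4 again above sham replicate 2.

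Markers of the other cell types of the duct had no called member, where 0.359% of all genes were called. Of 13 epithelial markers limma called 0 (median 0.03). At an unadjusted p under 0.05, 1 was higher and 1 lower (7.69% each, beside 3.73% and 2.29% of all genes). The summed signal of these markers was 20642 to 22840 in sham and 20735 to 22734 after ligation. Of 15 fibroblast markers limma called 0, with 0 at an unadjusted p under 0.05 and a median of -0.28, -0.06 within replicates 1 and 2 and -0.48 within replicates 3 and 4. Their summed signal was 11548 to 34408 in sham and 8898 to 29765 after ligation, with both groups lower in replicates 3 and 4. Of 11 macrophage markers limma called 0, with 0 at an unadjusted p under 0.05, a median of -0.20 and sums of 3701 to 6569 and 2969 to 5515. None of the matched markers of neutrophils, B cells or mast cells reached the minimum level. The part of these cells in the changes described was not tested.

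Some genes switched across the minimum level. Being under 5 in all 4 sham arrays and at or above it in all 4 ligated arrays held for 10 probe sets, 7 of them named, and 4 were called (Fgg, Fga, Cpne8 and Ampd3). The other named ones were Cnr1, Slc7a11 and Ecscr. The reverse held for 3 probe sets, all called, of which Sh3tc1 is the named one.

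Within the pairs of replicates the called changes differed in size, by more than 1.5 times for 4 of the 30 called genes. Their sign was the same in both pairs, which for 29 genes follows from arrays that do not overlap and is no separate evidence. Dusp5 fell by 2.61 and 2.39 in the pairs, Sh3tc1, as measured, by 3.08 and 2.48, and Abl2 by 1.18 and 1.37. As measured, Fgg rose by 3.36 and 5.09 and Fga by 3.17 and 4.65, while Pik3ip1 rose by 1.02 and 0.55. Tested directly in the 8 arrays, the difference of the change between the pairs was called for 1 probe set, that of Fam111a, with 667 at an unadjusted p under 0.05.

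**Figure D4:**
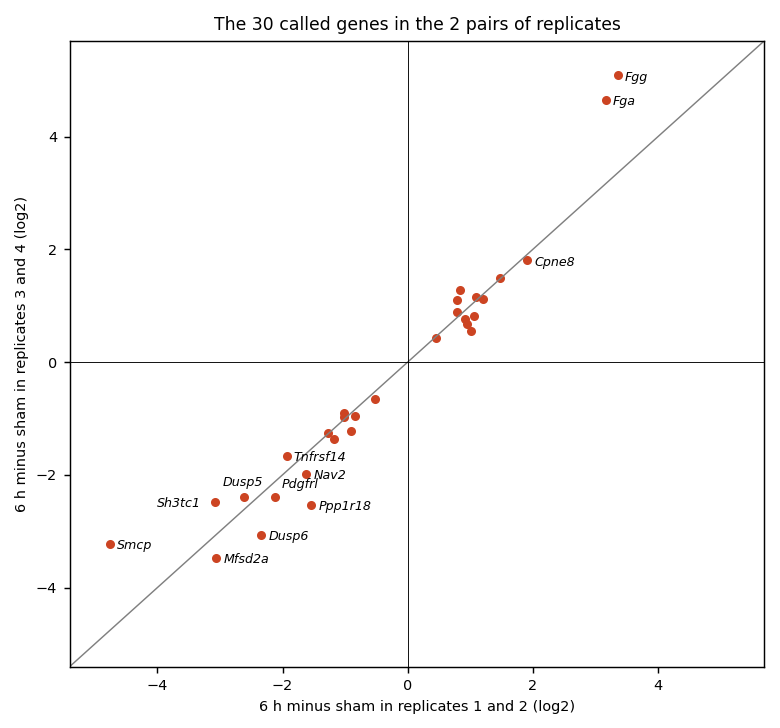
Change from sham to 6 h (log2) of the 30 called genes within replicates 1 and 2 (horizontal axis) and within replicates 3 and 4 (vertical axis), with the line of equal change; genes with a change over 1.7 in size are named. Fgg and Fga lie above the line, with changes of 3.36 and 3.17 on the horizontal axis and 5.09 and 4.65 on the vertical one.

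Set beside the later groups, which share the same sham arrays, the 6 h levels were of several kinds. Dusp6 had means of 10.11 in sham and 7.41, 7.70 and 7.76 at 6, 12 and 18 h, and Nav2 of 8.03, 6.24, 6.10 and 6.10, so that both were about as low at 6 h as later. Dusp5 had means of 10.97, 8.47, 7.56 and 8.60. Pdgfrl was at an intermediate level at 6 h, with means of 11.03, 8.77, 5.65 and 5.43, as was Fgg on the rising side with 2.90, 7.12, 10.01 and 10.33. Etv4 (11.35, 10.79, 8.27 and 7.43) and Nkd2 (11.21, 10.25, 6.63 and 5.95) were nearer to sham at 6 h than to the later means. Cited2 had its highest mean at 6 h, with 8.13, 8.95, 8.80 and 8.69, and Acta1, at 9.59, 8.69, 9.92 and 10.20, was under its sham mean only at 6 h. These differences between times were not tested here.

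**Figure D5:**
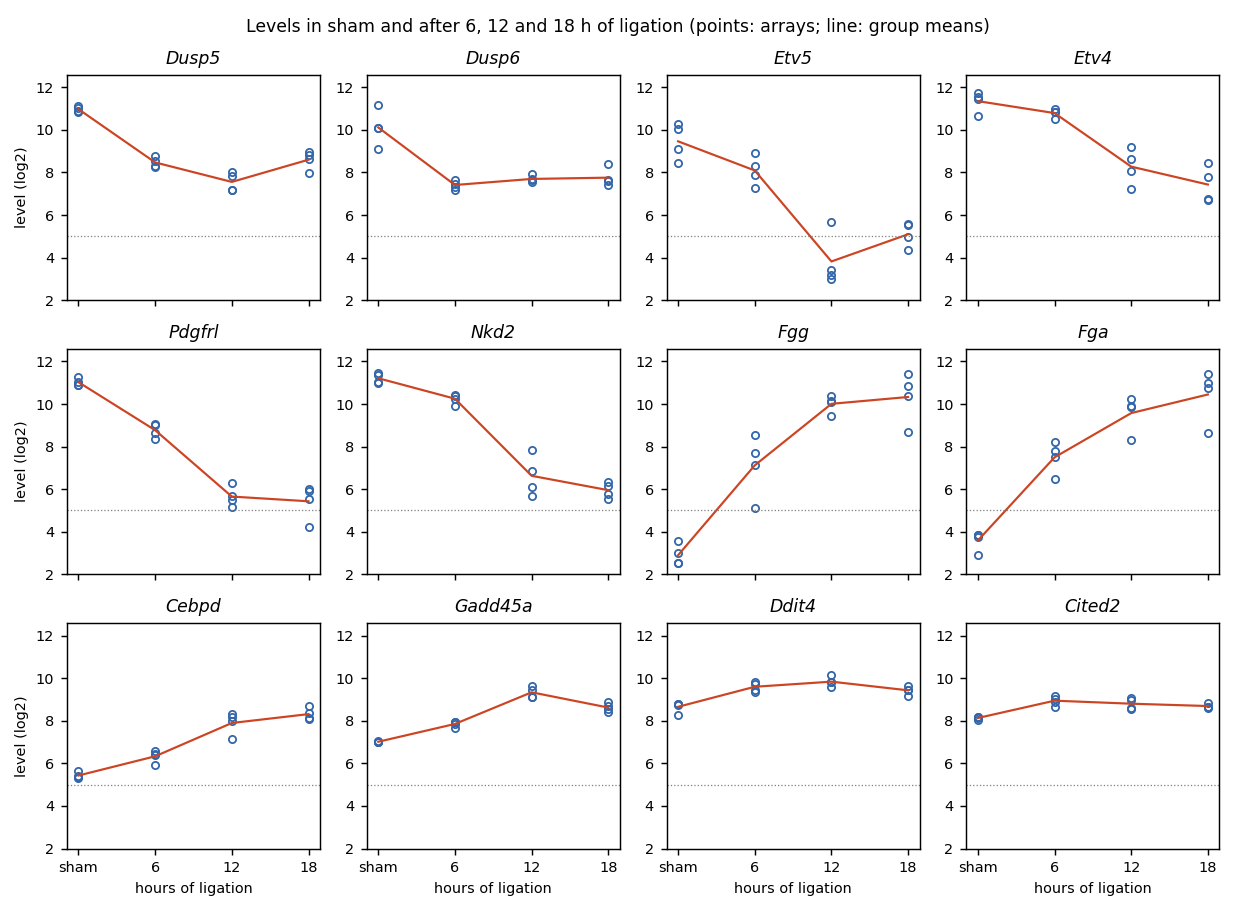
Levels (log2, vertical axis) of 12 genes in each of the 16 arrays, by group (sham, then hours of ligation), with a red line through the group means and a dotted line at the minimum level of 5. Dusp6 reaches its low level by 6 h (mean 7.41), whereas Etv4 and Nkd2 are still at 10.79 and 10.25 then.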

How the data were processed

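RNA of 16 tissue samples was hybridised to Affymetrix rat arrays, 1 array each. The deposited log2 values were made by the authors with GCRMA, per the submitters' processing notes, which name no version. GCRMA corrects background by probe sequence and normalizes quantiles. After 57 controls were left out of 31099 probe sets, 31042 remained. GEO's platform annotation of 2016 named 20826 with 1 symbol, and 10869 of the 13410 tested. A gene is represented by its tested probe set of highest mean over 16 arrays.

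The limma 3.58.1 package in R 4.3.3 fitted the 4 group means over the 16 arrays at once (lmFit, eBayes with default prior), with Benjamini-Hochberg adjustment and calls at 0.05; the code was tested on simulated data. Alternatives were other priors, minimum levels, scalings, array weights (statmod 1.5.0), blocks and subsets of arrays. Same-numbered sham and 6 h arrays deviated together (correlations 0.276 to 0.498, all above 0.1). The replicate number entered as a block only in alternative fits. The main fit held no block, so its p-values are not paired. The labels do not say what a number stands for, and differently numbered arrays within replicates 1 and 2 or within 3 and 4 deviated together as well (0.176 to 0.490). The members and the 43 lists (750 symbols, 652 matched, 471 tested) were chosen with earlier results of these data known. Named genes are all called genes, called list members or else the 2 of smallest p, the 10 largest uncalled differences each way without overlap, and 16 fixed genes; further list members were chosen after their values were seen. Promoters are RefSeq's (GRCr8), matched by symbol. Scanner files were not analysed here.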

Additional observations from a re-analysis of the deposited data

Results flagged for a closer look

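In 228 groups of 4 arrays (sham and 6 h for each named gene), 19 held an array that stood far from the other 3, by a rule that chance alone meets in about 1 group in 20. Among called genes these were sham replicate 4 for Fga (2.93), sham replicate 2 for Ddit4 (8.29), sham replicate 1 for Mfsd2a (5.796), and 6 h replicate 4 for Smcp (6.22), 6 h replicate 2 for Nav2 (6.62) and 6 h replicate 3 for Chic2 (5.57). Among other genes, sham replicate 1 stood apart for Lef1 (8.67), Egfl7 (5.15) and Lck (6.90), sham replicate 2 for Fdft1 (8.60), sham replicate 3 for Bok (9.23), Fibin (6.39) and Cd2 (5.802), and sham replicate 4 for Tnfaip3 (6.43). At 6 h, replicate 3 stood apart for Cd68 (3.35), Cd2 (5.71), Sprr2d (9.11), Spry2 (7.18) and Egr1 (7.99).

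The change at 6 h differed between the pairs of replicates for 1 probe set, that of Fam111a, by 9.64 (limma interaction, adjusted p = 0.00796). Fam111a stood at 11.42, 11.91, 2.33 and 2.58 in sham and at 11.78, 12.06, 12.79 and 11.90 at 6 h. At 12 h it stood at 11.31, 10.87, 5.28 and 11.76 and at 18 h at 10.41, 11.08, 3.34 and 2.58, so that low levels occurred only in replicates 3 and 4, in sham, at 12 h and at 18 h.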

How the results depend on the processing

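As reported, 38 probe sets were called, 15 higher and 23 lower. With the replicate number as a block limma called 46 (20 higher, 26 lower), and the block ended the calls of Smcp, Tcim and Tom1, added Mogat1 and Cnr1, and changed no other call among named genes. Without a minimum level 7 were called (1 higher, 6 lower), with only the 8 arrays 15 (7 and 8), and with these and the replicate block 8 (2 and 6). Replicates 1 and 2 alone gave 0 calls (962 at an unadjusted p under 0.05) and replicates 3 and 4 alone 0 (1294), by limma with 4 arrays each. Array weights gave 104 (47 and 57). The pair of replicates as a block over 16 arrays, chosen after seeing the data, gave 55 (23 and 32). At an adjusted p under 0.01 there were 6 (0 and 6), and with a fold change of at least 2 there were 25 (8 and 17). Leaving out 1 array gave 7 to 48 in all, 1 to 20 higher and 6 to 28 lower. The share of lower calls was 60.5% as reported, 67.6% with centred arrays and 65.8% after quantile normalization again. No called gene changed direction in any alternative run. In runs that drop, weight or block arrays, this follows for 29 of the 30 genes from arrays that do not overlap. It is no separate evidence there. Among genes not called, the difference turned negative in replicates 3 and 4 alone for B2m (-0.091), Hbb (-0.095), Ggt1 (-0.17), Cst8 (-0.15) and Penk (-0.056), and positive for Fabp4 (0.28), Spry4 (0.068) and Fos (0.34). In replicates 1 and 2 alone it turned positive for Cldn1 (0.20), Dpt (0.21) and Nfkbia (0.0091) and negative for Egr1 (-0.13). Ggt1 was at -0.000777 with centred arrays and -0.015 with array weights, and Cst8 at -0.091 with array weights. Over the fits without 1 array the difference ran from -0.00745 to 0.22 for B2m, -0.25 to 0.053 for Cldn1, -0.13 to 0.29 for Hbb, -0.070 to 0.46 for Egr1, -0.085 to 0.12 for Ggt1, -0.12 to 0.32 for Cst8 and -0.026 to 0.32 for Penk. The causes were not tested. The number of arrays limits precision: the median SE of a change was 0.181.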
